A study of Gallus gallus with 8 samples.

Results

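The 150 genes described here are expressed liver genes whose level was higher in every ascitic pool than in any healthy pool of meat-type chickens. They were chosen from 14634 genes of the deposited table by their values. The 100 genes of highest mean level were set aside, a value above 6.5 on the deposited log2 scale (59.4 normalized reads) was asked of at least 1 healthy pool, and the 150 genes with the largest gap were taken. The gap is the lowest of the 4 ascitic values minus the highest of the 4 healthy values. Of 10316 genes open to this choice, 841 had a gap above 0, so the 150 genes are the top of a longer list.

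Liver RNA came from 32 birds, pooled 4 birds at a time into 2 pools each of ascitic males, ascitic females, healthy males and healthy females. All birds, healthy ones included, were kept at 18 °C from day 22 until day 48 and fed an energy-rich diet. The labels give day 42 for every pool without saying what was done on that day, and they name no strain or line. Ascites was observed and not assigned, and the spread between the birds inside a pool was not measured.

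Ascites of meat-type chickens, also called water belly, is the collection of fluid in the body cavity that follows pulmonary hypertension and failure of the right side of the heart. Cold raises the demand for oxygen and is used to bring it out in susceptible birds. The liver drains into the overloaded right heart and becomes congested, and it is also the main site of plasma protein and fat synthesis in birds. In RNA of whole tissue, a change in the share of a cell type and a change in RNA per cell cannot be told apart.

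The table gives Ensembl gene IDs without gene names, and 0 of its IDs could be matched to the reference table used here. The members are therefore described by their values and by their rank of gap. Only 2 are given by ID, and neither functions nor sequences are stated. For the same reason the liver label was not checked against marker genes.

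Depth was 26535683 to 33193179 reads in ascitic pools and 26459951 to 30599393 reads in healthy pools. The authors' size factors were 1.09 to 1.56 in ascitic pools and 0.484 to 0.946 in healthy pools. Below, normalized reads are reads divided by these factors. They are not corrected for gene length, so they compare pools within a gene and not genes with each other. Healthy female 2 had the lowest factor. In a check of the sex labels, 11 genes that reached 50 normalized reads in every female pool but stayed at 5 or fewer in 3 of the 4 male pools summed to 5585 normalized reads in the pool labelled healthy male 1. They summed to 6.43 and 3.85 normalized reads in the ascitic male pools and to 3.17 in healthy male 2, so for these genes that pool goes against its label, and none of the 150 members is among them. The members' median sex difference in healthy birds, that over both states and the interaction are given below with and without the pools labelled healthy male 1 and healthy female 2. Orders of healthy pools, comparison sets and, except for ENSGALG00000004449, single members are given there with these pools as labelled.

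The member of largest gap was ENSGALG00000042148. It had 19336 and 28367 normalized reads in ascitic males and 11274 and 10233 in ascitic females, against 734 and 1164 in healthy males and 1373 and 1929 in healthy females. Its lowest ascitic pool thus held several times the reads of its highest healthy pool, and the ascitic male pools were its highest. Its mean was 17303 ± 8424 normalized reads in ascitic pools and 1300.0 ± 497 in healthy pools (SD, n = 4 each), a ratio of 13.3. On the log2 scale the gap was 2.39.

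The member of highest mean level over the 8 pools was ENSGALG00000004449, rank 12 by gap. It had 100314 and 70417 normalized reads in ascitic males and 36934 and 43979 in ascitic females, against 8934 and 9123 in healthy males and 5763 and 15469 in healthy females. Here the ascitic pools separated into a higher male pair and a lower female pair, while the healthy female pools lay on either side of the healthy male pools. Its mean was 62911 ± 28801 normalized reads in ascitic pools and 9822 ± 4068 in healthy pools (SD, n = 4 each), a ratio of 6.41.

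The next members by gap showed 2 forms. The member of rank 2 had 888 and 812 normalized reads in ascitic males and 440 and 441 in ascitic females, against 73.2 and 86.7 in healthy males and 33.8 and 43.4 in healthy females. Its male pools lay above its female pools in both states. The member of rank 3 had 1386 and 1357 normalized reads in ascitic males and 924 and 1515 in ascitic females, against 167 and 228 in healthy males and 197 and 110 in healthy females. Its sexes overlapped in both states.

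The members of ranks 4 and 5 also had overlapping sexes in ascitic birds. Rank 4 had 540 and 320 normalized reads in ascitic males and 294 and 463 in ascitic females, against 60.3 and 69.8 in healthy males and 65.3 and 47.6 in healthy females. Rank 5 had 438 and 690.3 normalized reads in ascitic males and 444 and 502 in ascitic females, against 113 and 117 in healthy males and 132 and 120 in healthy females. The healthy pools of rank 5 lay close together, with 121 ± 8.03 normalized reads (SD, n = 4).

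The largest ratio between states belonged to a member in the middle of the list. The member of rank 62 had 11367 and 11655 normalized reads in ascitic males and 4338 and 468 in ascitic females, against 152 and 247 in healthy males and 141 and 95.1 in healthy females. Its ratio of means was 43.8, and its gap of 0.84 was set by ascitic female 2, which was far below the other ascitic pools.

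At the end of the list, the member of rank 150 had 2016 and 1772 normalized reads in ascitic males and 952 and 1325 in ascitic females, against 555 and 462 in healthy males and 593 and 639 in healthy females. Its groups still stood apart, with a gap of 0.55. The genes of rank 149 and 150 by gap had gaps of 0.5511 and 0.5508, and the first genes outside, ranks 151 and 152, had gaps of 0.5498 and 0.5496. The lowest values by which members met the level limit were 6.540 and 6.544 in their highest healthy pool. A further 127 genes with as large a gap fell below that limit, the nearest at 6.480 and 6.463. None of the 100 genes set aside for their level had such a gap.

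**Figure D1:**
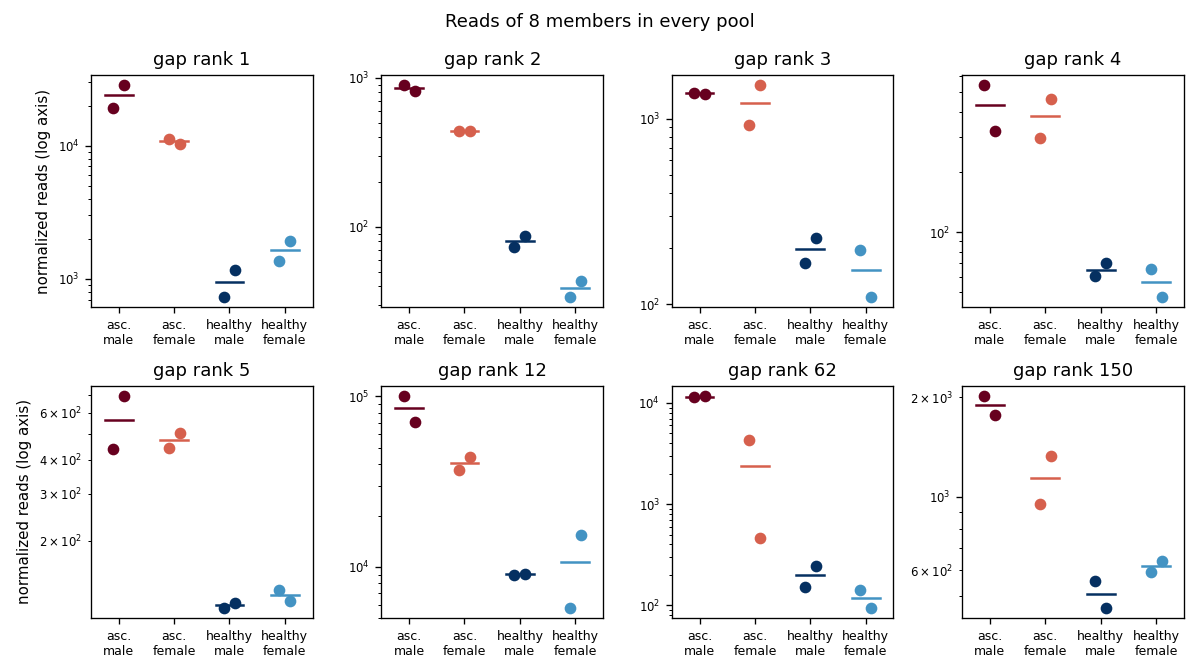
Normalized reads (log axis) of 8 members in each of the 8 pools, by group. Points are pools of 4 livers and the horizontal lines are the means of 2 pools. Ranks 1, 2, 12, 62 and 150 have both ascitic male pools above both ascitic female pools, and ranks 3, 4 and 5 do not.

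Over all 150 members the mean was 131 to 62911 normalized reads in ascitic pools (median 538) and 32.5 to 9822 in healthy pools (median 144). Every member had at least 125 reads in each ascitic pool, and the fewest reads of a member in a healthy pool were 2. The ratio of means, ascitic over healthy, ranged from 2.04 to 43.8 with a median of 3.33. It was above 3 for 98 members, above 4 for 45 and above 8 for 8. The log2 difference from the additive limma model of sex and state had a median of 1.55 (interquartile range 1.28 to 1.84), against 0.02 for all 13766 genes tested. The 4 ascitic pools lay above the 4 healthy pools for 10.6% of all genes tested, and for every member by the rule. With other scalings no member overlapped either. Of all genes tested, 12.1% (trimmed mean factors), 12.8% (upper quartile factors) and 24.3% (total reads) were then free of overlap. Most of these changes of factor widened the gaps. The few that narrowed them were small beside the smallest gap of a member, 0.55 log2 units. The members' lack of overlap under other scalings is therefore not a test. All 150 members passed the test at an adjusted p of 0.05 (limma), where 5.59% of all genes tested were called higher. Since this contrast chose the members, their count is a description only.

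**Figure D2:**
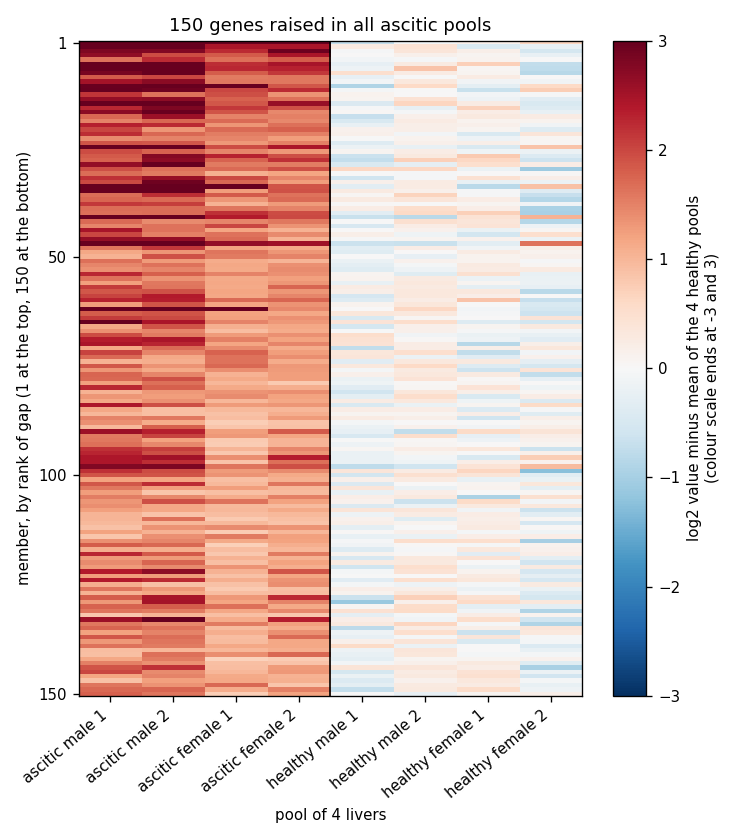
Log2 value of each of the 150 members minus its mean in the 4 healthy pools, with members in rows by rank of gap and pools in columns. All ascitic columns lie above all healthy columns by construction. The colours are deeper in the 2 ascitic male columns than in the 2 ascitic female columns for most rows.

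As a share of all reads, the members summed to 1.33% and 1.74% in ascitic males and 0.990% and 0.945% in ascitic females, against 0.197% and 0.269% in healthy males and 0.242% and 0.126% in healthy females. The member of highest mean level made up part of this. Without it the shares were 0.974% and 1.38% in ascitic males and 0.827% and 0.754% in ascitic females, against 0.169% and 0.237% in healthy males and 0.223% and 0.0981% in healthy females. The order of the groups was the same in both sums, with the ascitic male pools highest and the healthy pools lowest.

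The choice of members made no use of sex, so the order of male and female pools within each disease state was then examined. In ascitic birds most members had both male pools on top. Both ascitic male pools lay above both ascitic female pools for 97 of 150 members (64.7%), where 24.6% of all genes tested did so. The reverse order was found for 5 members (3.33%), where 22.4% of all genes tested had it, and 48 members overlapped. The highest ascitic pool was a male pool for 132 members (88.0%, against 57.6% of all genes tested), divided between ascitic male 1 with 63 and ascitic male 2 with 69. The lowest ascitic pool was a female pool for 128 members (85.3%, against 45.7%), with 79 for ascitic female 1 and 49 for ascitic female 2. Both pools of each sex thus took part in the order.

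The male excess in ascitic birds was of modest size for the typical member and large for a few. The log2 difference, ascitic males minus ascitic females, had a median of 0.44 (interquartile range 0.17 to 0.79, lowest -0.42, highest 2.96), against 0.02 for all genes tested, and was above 0 for 131 of 150 members. On normalized reads the ratio of ascitic males to ascitic females had a median of 1.39. It exceeded 1.5 for 61 members (40.7%, against 15.5% of all genes tested) and 2 for 25 members (16.7%, against 6.68%). No member had a ratio below 0.727. The count of 97 was 93 with trimmed mean factors, where 23.2% of all genes tested had that order, 93 with upper quartile factors, where 23.9% had it, and 69 with total reads, where 18.8% had it. The estimate was above 0 for 131 members under each of these scalings, with a median of 0.41 to 0.44.

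**Figure D3:**
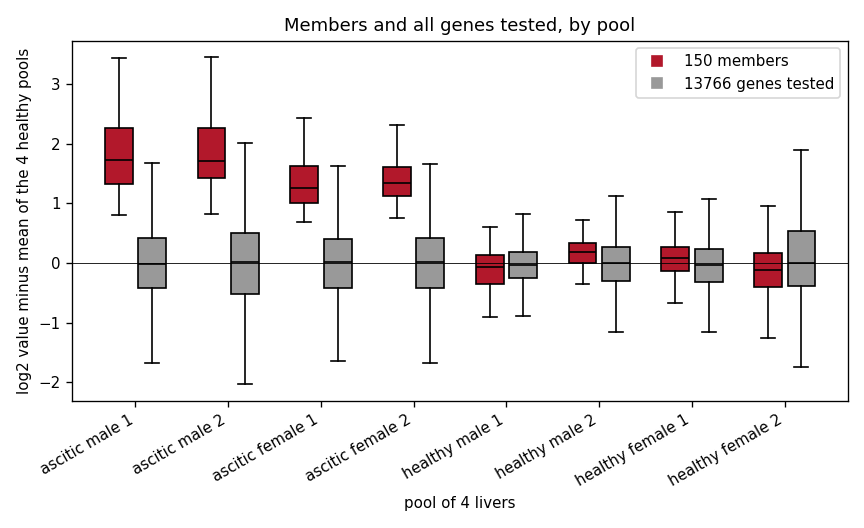
Log2 value minus the mean of the 4 healthy pools, for the 150 members (red) and all 13766 genes tested (grey), in each pool. Boxes show the median and quartiles, and whiskers reach the last value within 1.5 interquartile ranges. The members' medians were 1.73 and 1.71 in ascitic males and 1.25 and 1.33 in ascitic females, and lay between -0.11 and 0.18 in healthy pools.

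Gene by gene, the difference between ascitic males and ascitic females did not pass correction. In limma 0 of 150 members, and 0 of all genes tested, passed an adjusted p of 0.05, and the smallest adjusted p of a member was 0.469. At an unadjusted p under 0.05 there were 37 members, all of them higher in males, where 2.66% of all genes tested were higher and 2.36% lower. The rule limits how far the members' pools can spread towards the other state, and so bears on the spread used in this test. The members' counts at an unadjusted p, here and below, are therefore a description. Limma-voom also passed 0 members and 0 of all genes tested. Limma-voom with sample weights passed 7 members, with 0.821% of all genes tested. With only 2 pools per group, single genes are weakly resolved, and the members share the same 4 pools. The spread was shared by all 8 pools, the pool labelled healthy male 1 included. The 11 genes of the label check summed to 6493 and 8969 normalized reads in ascitic females, against 6.43 and 3.85 in ascitic males. They did not pass either, so 0 genes passing does not mean that no gene differed. That pool also entered the other tests of sex and the interaction.

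One member with a large male excess and sexes well apart, that of rank 35, had 1583 and 1540.5 normalized reads in ascitic males, against 333 and 543 in ascitic females. Its log2 difference was 1.79 (SE 0.31; limma, adjusted p = 0.469). The member of largest gap, ENSGALG00000042148, had a log2 difference between ascitic males and ascitic females of 1.12 (SE 0.36; limma, adjusted p = 0.726). For ENSGALG00000004449 it was 1.06 (SE 0.48; limma, adjusted p = 1.00). Of the 5 members in the reverse order, that of rank 74 had 6306 and 6520 normalized reads in ascitic males, against 9579 and 6607 in ascitic females.

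In healthy birds the order was mixed. Both healthy male pools lay above both healthy female pools for 38 members (25.3%), where 16.2% of all genes tested did so, and the reverse held for 26 members (17.3%), where 15.4% did. The median log2 difference, healthy males minus healthy females, was 0.05 and was above 0 for 80 members. It was 0.19 with 100 members above 0 without the pool labelled healthy male 1, and -0.04 with 65 above 0 without healthy female 2. Without both it was 0.09 with 94 above 0. Scaled by total reads it was 0.38 with 124 above 0, where the median of all genes tested was 0.26. In limma 0 members, and 0 of all genes tested, passed. At an unadjusted p under 0.05, 8 members were higher in healthy males, where 4.59% of all genes tested were, and 4 were lower, where 4.28% were. Both forms of limma-voom passed 0 members and 0 of all genes tested here.

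Taking both states together, 126 of 150 members had a higher estimate in males than in females, at a median log2 difference of 0.23. In limma 0 members, and 0 of all genes tested, passed. At an unadjusted p under 0.05 there were 19 members, all higher in males, where 3.81% of all genes tested were higher and 2.93% lower. Limma-voom with sample weights passed 2, with 0.356% of all genes tested. Limma-voom without them passed 0 members and 0 of all genes tested. The estimate was higher in males for 135 members (median 0.34) without the pool labelled healthy male 1 and for 118 (median 0.28) without healthy female 2. Without both it was so for 130 (median 0.32), and 3 members passed, with 0.748% of all genes tested.

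The members' difference between states was then set side by side in the sexes. The median log2 difference, ascitic minus healthy, was 1.68 in males (interquartile range 1.31 to 2.25) and 1.36 in females (1.09 to 1.69). It was above 0 in both sexes for all 150 members, which the choice of members fixed. In limma 90 members passed within males, where 2.03% of all genes tested were called higher, and 1 within females, where 0.0218% were. The choice of members used the pools of both contrasts, so these counts are a description only. They depended strongly on single pools. Without the pool labelled healthy male 1 they were 0 and 0, with 0 of all genes tested. Without healthy female 2 they were 149 within males, where 7.42% of all genes tested were called higher, and 42 within females, where 0.763% were.

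The difference between the sexes' differences was not fixed by the choice of members. It was larger in males for 113 of 150 members (75.3%), where 52.7% of all genes tested had the larger value in males, with a median of 0.38 log2 units against 0.04. In limma 0 members, and 0 of all genes tested, passed the interaction test (smallest adjusted p of a member 0.385). At an unadjusted p under 0.05 there were 23 members. Of these, 22 had the larger difference in males, where 3.16% of all genes tested did, and 1 in females, where 2.91% did. Both forms of limma-voom passed 0 members and 0 of all genes tested. Scaled by total reads the larger difference was in males for only 77 members (median 0.02, all genes tested -0.27), and with upper quartile factors for 98 (median 0.23, all genes tested -0.08). Without the pool labelled healthy male 1 the larger difference was in males for 96 members (median 0.26), and without healthy female 2 for 118 (median 0.49). Without both it was in males for 106 (median 0.34). Without healthy female 1 it was so for 99, and 12 of 150 members passed, where 16.2% of all genes tested did, so the members' share was below that of the whole table.

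The largest interaction belonged to a member whose healthy males were nearly without reads. The member of rank 41 had 839 and 541 normalized reads in ascitic males, against 7.54 and 5.29 in healthy males. It had 241 and 174 in ascitic females, against 40.8 and 76.5 in healthy females. The males thus lay above the females in ascitic birds and below them in healthy birds, where 7 and 5 reads were counted in the male pools. Only the healthy female pool with 76.5 normalized reads lay above the level limit of 59.4 by which members were chosen. Without a high value in that pool this gene would not have been a member. The choice thus bears on its healthy order and on its interaction. Its difference was 4.50 log2 units in males and 1.44 in females, and the interaction was 3.05 (SE 0.49; limma, adjusted p = 0.385).

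For ENSGALG00000042148 the difference was 4.61 log2 units in males and 2.70 in females, and the interaction was 1.92 (SE 0.51; limma, adjusted p = 0.765). Its healthy pools were in the reverse order of its ascitic pools, with females above males. For ENSGALG00000004449 it was 3.21 in males and 2.09 in females, and the interaction was 1.12 (SE 0.68; limma, adjusted p = 0.831). Its healthy female pools were far apart, as given above, and its interaction depended on them. The interaction was 0.42 without healthy female 2 and 1.83 without healthy female 1. Without healthy female 2 and the pool labelled healthy male 1 it was 0.40.

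**Figure D4:**
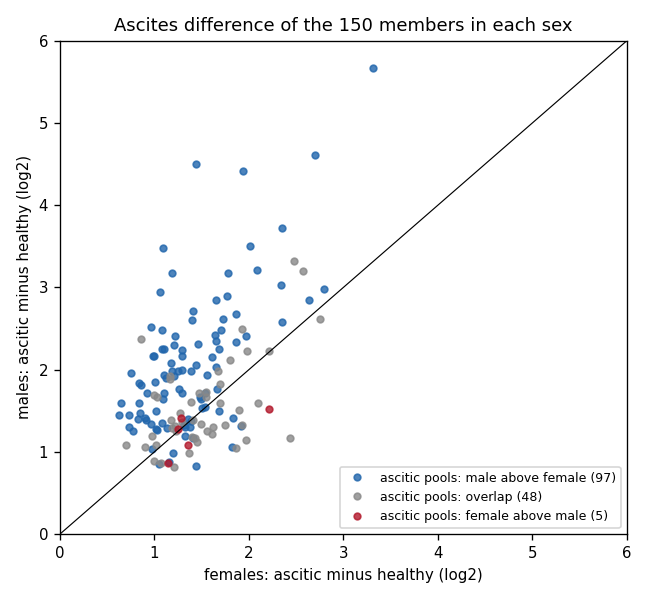
Log2 difference, ascitic minus healthy, in males (vertical) against females (horizontal) for the 150 members, with a line of equal values. Colours give the order of the ascitic pools. Of the 150 points, 113 lie above the line.

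Comparison sets show how far this order reached. The 691 other genes of the same level rule with a gap above 0 had both ascitic male pools on top in 39.8% and both female pools on top in 8.10%. Their median log2 difference, ascitic males minus ascitic females, was 0.14. A set of 150 genes chosen by the reversed rule, lowest healthy pool above highest ascitic pool, had the ascitic female pools on top in 40.7% and the male pools on top in 12.7%. Against the healthy pools of their own sex, the difference was further from 0 in males for 113 members (75.3%), for 49.6% of the other raised genes, for 38.7% of the lowered set and for 42.7% of all genes tested. The lowered set was also higher in females among healthy pools, with both male pools on top for 15 genes and both female pools for 41. The sets share their pools, and the differences between them were not tested.

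**Figure D5:**
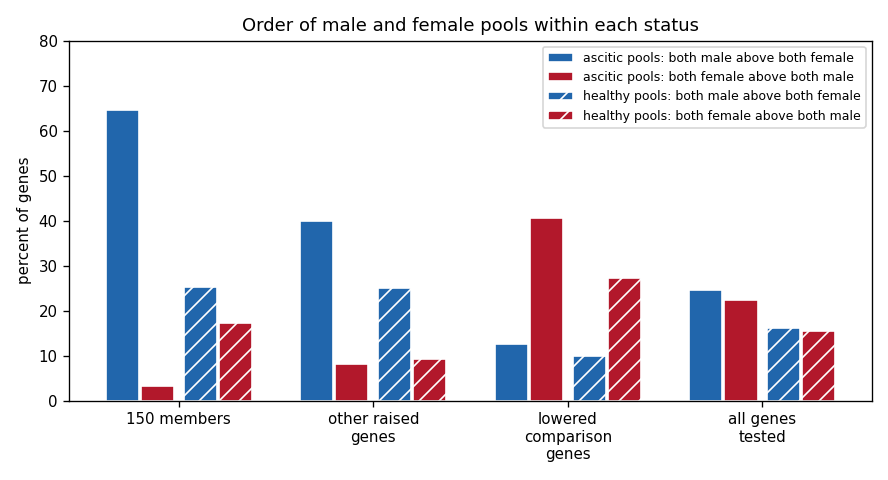
Percent of genes with both male pools above both female pools (blue) or the reverse (red), within ascitic pools (plain) and healthy pools (hatched), for the members, the other raised genes, the lowered comparison genes and all genes tested. The plain blue bar is 64.7% for the members and 24.6% for all genes tested.

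With each gene centred within its disease state, the first component held 40.3% of the members' remaining variation. It set both ascitic male pools (weights 0.43 and 0.51) against both ascitic female pools (-0.48 and -0.46), while the healthy pools had weights between -0.19 and 0.20. The second, with 23.4%, set healthy female 2 (0.83) apart. Over all genes tested the first component held 53.4% and set healthy female 2 apart (0.83), with ascitic pools between -0.06 and 0.12. The second, with 16.5%, set the ascitic male pools (0.46 and 0.30) against the ascitic female pools (-0.43 and -0.33). It also weighted healthy female 1 (-0.48), healthy male 1 (0.34) and healthy male 2 (0.24), and healthy female 2 less (-0.09). A component that set ascitic males against ascitic females was thus first among the members and second in the whole table. The healthy pools had small weights in the former and larger ones in the latter, so these are not the same direction. The rule limits how far the members' pools can spread towards the other state, which shapes this variation in part.

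To read chosen genes in a pool that had no part in choosing them, the choice was repeated 8 times with 1 pool left out. Between 107 (without healthy male 2) and 144 (without ascitic male 2) of the 150 members were chosen again. Each time, the pool left out was then compared with the pools of the other state, over the 150 genes chosen that time. Of these genes, 6 (without ascitic male 2) to 43 (without healthy male 2) were not members. The pools of the other state had helped to choose them, which favours a separation, so the counts are a description only. A left-out ascitic pool lay above all healthy pools for 149 and 150 of the 150 chosen genes (males 1 and 2) and for 146 and 147 (females 1 and 2), where 18.3% to 21.9% of all genes open to the choice did so. A left-out healthy pool lay below all ascitic pools for 149 genes (the pool labelled healthy male 1), 144 (healthy male 2), 149 (healthy female 1) and 121 (healthy female 2), where 25.3% to 39.9% of the genes open did so. The pool that departed most was thus healthy female 2, with 80.7%. Most genes open to the choice did not separate the remaining pools, so genes with a gap above 0 there are the nearer comparison. Of those, the chosen genes included, a left-out ascitic pool lay above all healthy pools for 74.4% to 89.8%. A left-out healthy pool lay below all ascitic pools for 69.7% to 88.2% of them, and healthy female 2 for 74.9%. The median log2 difference of a left-out pool from the other state was 1.68 and 1.70 for the ascitic males and 1.17 and 1.27 for the ascitic females. For left-out healthy pools it was -1.55 (the pool labelled healthy male 1), -1.13 (healthy male 2), -1.31 (healthy female 1) and -1.36 (healthy female 2).

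Healthy pools also differed in how often they bounded a member. The highest healthy pool, which sets the gap, was healthy male 2 for 60 members, healthy female 1 for 42, healthy female 2 for 33 and the pool labelled healthy male 1 for 15. Over all genes tested healthy female 2 was the highest healthy pool most often, for 37.1% of genes, against 22.0% of the members. The gap falls as the highest healthy value rises, so the choice of members itself bears on this difference.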

How the data were processed

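Poly(A) RNA of 8 pools, each of 4 chicken livers, was sequenced; per the labels' protocols, RNA integrity numbers were above 7.5. The submitters' processing notes name TopHat2 2.0.9, HTSeq 0.6.1 and DESeq2 1.22.1, among other tools, without roles. The genome build and annotation are not named in the sources used here. Values as deposited by the authors are log2-like: inverting a variance-stabilizing transformation of scaled counts gave whole reads for 100% of values (tolerance 0.01, largest deviation 0.0058). Reads divided by the authors' size factors are the normalized reads used here. Low counts are compressed on this log2 scale, which understates their differences.

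The filter asked for 15 reads in all and, in 2 pools, the equivalent of 10 reads in a median-sized library. It left 13766 genes, all 150 members among them, which were tested with limma 3.58.1 (R 4.3.3; trend and robust options) on the deposited values. State and sex effects came from an additive model of all 8 pools, and effects within a sex or state and the interaction from a fit of the 4 groups' means. Benjamini-Hochberg adjustment ran across all 13766 genes. The labels do not say that pools of a group came from separate flocks or days, so p-values measure the spread between these pools. Fits were first checked on simulated counts, independent between genes, with a single fixed dispersion and no shifts shared by a pool. These pools do share variation across genes, so that check does not measure error rates here.

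The members, the comparison sets and the tests were chosen with earlier results of these data known. The lowered comparison set, the other raised genes, the left-out-pool readings and the members' directions under other scalings were added after seeing the data. By the naming rule, where IDs carry no gene names, only the members of largest gap and of highest mean level are given by ID, and ranks 1 to 5 and 150 are described. Ranks 35, 41, 62 and 74 were chosen after their values were seen. Prepared lists of pathway genes and cell type markers were not used, as they need gene names. Depth was 26459951 to 33193179 reads per pool, and reads are not molecules.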

Additional observations from a re-analysis of the deposited data

How the results depend on the processing

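All 150 members kept a higher ascitic level under every scaling. Most changes of factor widened their gaps, and the few that narrowed them were small beside the smallest gap. Their median log2 difference was 1.39 to 1.80 under all alternatives but total reads. There it was 2.07, while the median of all genes tested moved to 0.48 from 0.02. The cause was not tested. Members called between states numbered 90 to 150 with 1 pool left out (90 without healthy male 1, with 1.45% of all genes tested called higher, and 93 without ascitic male 2, with 1.55%). Repeating the choice kept 89 members without healthy female 2 and healthy male 1 and 91 with the difference of means in place of the gap, which asks for other genes by construction. With 1 pool left out it kept 107 to 144.

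Within females the 1 member called became 63 under total reads (1.39% of all genes tested called higher), 7 under upper quartile (0.131%) and 5 under trimmed mean factors (0.109%), 6 under a filter of 5 CPM (0.154%) and 4 on log2 of normalized reads + 1 (0.109%). It became 0 under both forms of limma-voom and 0 in female pools alone, and 83 without healthy female 2 and healthy male 1 together (2.45%). With 1 pool left out it ran from 0 to 130: leaving out healthy female 1 gave 130 (14.8%), leaving out healthy female 2 gave 42 (0.763%) and leaving out any of the other 6 gave 0. Within males the 90 ran from 0 to 149: 149 without healthy female 1 (7.45% of all genes tested) or 2 (7.42%), 0 without healthy male 1 or ascitic male 2, 5 without healthy male 2, 1 without ascitic male 1 and 41 without either ascitic female pool (0.741%). Where a group kept 1 pool, that pool was assumed to vary like the others, and the spread was shared by all groups. Counts between states and within a sex remain descriptions, since the choice of members used these contrasts.

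The sex effect passed 2 members with sample weights and 3 without healthy female 2 and healthy male 1, with 0.356% and 0.748% of all genes tested. The sex difference in ascitic birds passed 7 and 9, with 0.821% and 1.21%. With 1 pool left out the interaction ran from 0 to 12 and the sex difference in healthy birds from 0 to 20 members, both highest without healthy female 1, where 2227 and 3445 of the 13766 genes tested passed, larger shares than the members'. With 1 pool left out, the members' median sex effect ran from 0.18 (without ascitic female 1) to 0.34 (without healthy male 1) log2 units. Their median sex difference in ascitic birds ran from 0.41 (without ascitic female 1) to 0.48 (without ascitic female 2). The interaction passed without healthy female 1 for ENSGALG00000042148 (limma, adjusted p = 0.0190, range over its alternatives 0.0190 to 1.00) and ENSGALG00000004449 (limma, adjusted p = 0.0350, range 0.0350 to 1.00). Under these alternatives their ascites difference, their sex difference in ascitic birds and their interaction kept their sign. The size of the interaction ran from 1.35 to 2.24 for ENSGALG00000042148 and from 0.40 to 1.83 for ENSGALG00000004449.

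No label ties pools that share a replicate number, and their deviations from the group means had correlations between -0.42 and 0.32, so no pairing was used. With the replicate block 146 members passed between states, where 3.53% of all genes tested were called higher. Within males 49 passed (0.908%) and within females 0 (0%).

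Every member had at least 125 reads in each ascitic pool, but as few as 2 in a healthy pool, so depth limits the healthy values of the scarcest members, rank 41 among them. The number of pools limits the tests of sex.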

Other observations

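The male order in ascitic pools was found among members of low, middle and high mean level. Over all genes tested, 24.6% had both ascitic male pools on top and 22.4% both ascitic female pools. Shares of all genes by level are not given here. Among the 50 members of lowest mean level, both ascitic male pools were on top for 30 and both ascitic female pools for 2. Among the 50 of middle level the numbers were 36 and 0, and among the 50 of highest level 31 and 3. Split by gap, the 50 members of largest gap had 31 and 2, the next 50 had 35 and 2, and the 50 of smallest gap 31 and 1. The median log2 difference, ascitic males minus ascitic females, was 0.53 for the 50 members of largest gap, 0.50 for the next 50 and 0.26 for the 50 of smallest gap. The gap is also the value that chose the members, so the split by gap is a description only.

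Each member's 4 ascitic and 4 healthy pools were examined for a single distant pool, judged by its distance to the nearest pool as a share of the range, against Dixon's 95% critical value. Of 300 such sets 14 held one (4.67%). The critical value gives about 1 in 20 for independent normal values, which is not a reference for these sets. The members were chosen by their lowest ascitic and highest healthy values, and all sets share the same pools. A share for all genes tested is not given here, so whether distant pools were rarer or commoner than by chance was not tested. The far pool was ascitic male 2 in 4 sets and ascitic female 1 in 2, healthy female 2 in 4, healthy male 1 in 2, and healthy male 2 and healthy female 1 in 1 each. None of 12 sets of pool-level measures or of the members given by ID held one.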
